A study of Homo sapiens with 6 samples.

Results

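A set of 10 genes of heme breakdown, heme transport and iron export was followed in K562 cells deprived of iron. Of the 62252 annotated genes to which the transcripts were assigned, these were chosen by name for their known roles: SLC40A1, HMOX1, HMOX2, BLVRA, BLVRB, FLVCR1, FLVCR2, SLC48A1, ABCG2 and BACH1. They comprised 88 annotated transcripts. K562 is an erythroid leukemia cell line, and every library came from this line alone. A group of 3 cultures (Chelator) was exposed overnight to 21H7, a cell-permeable chelator of iron, at 10 µM, and the other group of 3 (DMSO) to an equal volume of the solvent. The series describes the 3 libraries of each group as biological replicates. The comparison addresses how low iron availability changes mRNA levels.

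Heme oxygenase opens the heme ring and releases iron, carbon monoxide and biliverdin, which biliverdin reductase turns into bilirubin. The freed iron can be stored in ferritin or leave the cell through ferroportin, and heme itself is moved between compartments and across the cell surface by membrane carriers. In erythroid cells, which make heme in bulk for hemoglobin, the transcription repressor BACH1 senses heme and holds down genes of the globin and antioxidant programs until heme binds it.

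The libraries held 78.6 to 90.4 M estimated counts in DMSO and 85.4 to 101 M in Chelator (M, 1000000). An estimated count is the number of read pairs that salmon assigned to a transcript, and TPM is the same number per base of transcript, scaled to a common sum. Of the 8 erythroid marker genes looked at, all were expressed, with a summed level of 12366 to 13709 TPM in DMSO and 17486 to 18673 TPM in Chelator. The globin genes HBG1, HBG2, HBE1 and HBZ were higher at an adjusted p under 0.05, whereas the erythroid transcription factor genes KLF1 and TAL1 fell by 0.72 (DESeq2 adjusted p = 4.51e-23) and by 0.28 (DESeq2 adjusted p = 0.00038) on the log2 scale, and GATA1 did not pass. Among the markers of other cell types, MARCO, MS4A1 and CD8A were at 0 in every library. The 5 monocyte and macrophage markers summed to 11.4 to 12.1 TPM in DMSO and 17.3 to 19.8 TPM in Chelator, nearly all of it LYZ. The summed level was 1.52 to 2.05 TPM in DMSO and 2.92 to 3.52 TPM in Chelator for 4 lymphocyte markers, 2.74 to 3.41 TPM and 3.47 to 3.95 TPM for 4 fibroblast markers, and under 0.25 TPM in every library for 4 hepatocyte markers. LYZ rose by 0.63 (DESeq2 adjusted p = 3.78e-07), the lymphocyte marker CD3E by 1.97 (DESeq2 adjusted p = 0.0034) and the fibroblast marker COL1A1 by 1.60 (DESeq2 adjusted p = 1.43e-16), and COL1A2 fell by 0.48 (DESeq2 adjusted p = 0.0026), all on the log2 scale. Their part in the results was not tested. The difference between transcript length and effective length, taken over transcripts without counts and read here as fragment length, was 264 to 274 bases in DMSO and 218 to 231 bases in Chelator. The ranges of the 2 groups were separate, so an effect of fragment length cannot be told apart from that of treatment.

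DESeq2's Wald test gave an adjusted p to 9 of the 10 genes. At an adjusted p under 0.05, 6 of the 9 passed, against 37.7% of the 24542 genes with an adjusted p. SLC48A1, SLC40A1 and HMOX2 were lower in Chelator, against 18.3% of all genes, and FLVCR1, BLVRB and FLVCR2 were higher, against 19.5%. FLVCR2 entered the test only through its counts in Chelator, so nothing is read from the counts that include it. Normalized counts, which are counts scaled for depth and for the average transcript length, did not overlap between the groups for the same 6 genes, against 49.2% of all genes. These shares depend on read depth. Among the 6277 genes whose mean normalized count was between 2000 and 20000, 63.6% passed and 70.5% did not overlap, against 5 of the 7 genes of the pathway in this range for both counts. The 7 genes thus lie near the background of equally deep genes. A log2 fold change above 1 besides an adjusted p under 0.05 was found only for FLVCR2, for which the same holds. Of all genes, 10.8% had such a change in either direction and 8.18% in the higher direction. The median log2 fold change was 0.05 over the 7 deeper genes and -0.11 over the 6277 genes of like depth, and 0.02 over all genes with an adjusted p.

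**Figure D1:**
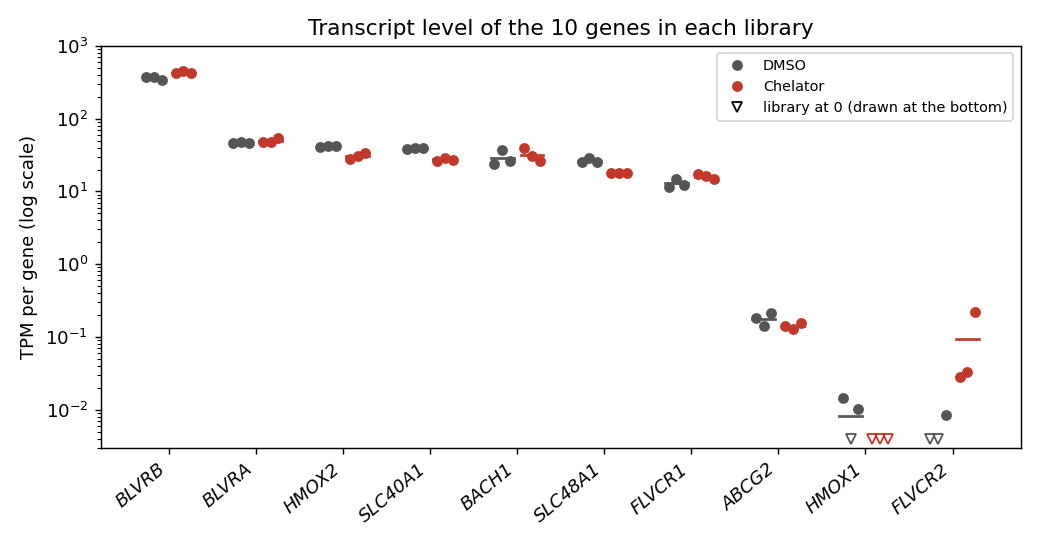
TPM per gene on a log axis for each of the 10 genes, in order of the DMSO mean, with 1 point per library, DMSO in grey and Chelator in red. Horizontal lines are group means and open triangles are libraries at 0, and the plot shows 7 genes above 10 TPM in every library and 3 genes below 0.25 TPM.

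The 10 genes spanned a wide range of levels. In DMSO, BLVRB was the most abundant at 343 to 379 TPM. BLVRA (45.7 to 48.2 TPM), HMOX2 (40.8 to 42.0 TPM) and SLC40A1 (38.0 to 39.95 TPM) followed, and none of these neighbours overlapped. BACH1 and SLC48A1 came next and overlapped each other, and FLVCR1 stood apart below them at 11.5 to 15.0 TPM. In Chelator the order changed in the middle of the range. There BACH1 (26.3 to 39.0 TPM), HMOX2 (28.2 to 33.6 TPM) and SLC40A1 (26.0 to 29.1 TPM) could not be separated beyond their spread. SLC48A1 at 17.8 to 17.9 TPM remained above FLVCR1 at 14.8 to 17.2 TPM. ABCG2, HMOX1 and FLVCR2 were under 0.25 TPM in every library.

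SLC40A1 encodes ferroportin, the only known iron exporter of mammalian cells. Its mRNA carries an iron-responsive element, a stem-loop in the 5′ UTR to which iron regulatory proteins bind when iron is scarce, and the same element lies in the mRNAs of the ferritin chains FTH1 and FTL. The element is shown because the transcripts of SLC40A1 are sorted by it, and the ferritin elements are shown for comparison. Capitals mark the loop motif, C-A-G-U-G and any base, which is flanked by 5 bases on each side that pair. The SLC40A1 element lies at chr2:189580660-189580689 on the minus strand, the FTH1 element at chr11:61967573-61967602 on the minus strand and the FTL element at chr19:48965335-48965364 on the plus strand (GRCh38, GENCODE transcript sequences, written 5′ to 3′ with T for U).
SLC40A1: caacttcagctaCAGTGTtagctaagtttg
FTH1: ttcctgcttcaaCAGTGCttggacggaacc
FTL: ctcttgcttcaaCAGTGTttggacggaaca

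Of all transcripts with an annotated 5′ UTR, 0.111% held such a stem-loop with all 5 pairs, in 41 of 19402 genes. No other gene of the 10 held it, with 5 pairs or with 4. Of the 34 genes with the stem-loop that had an adjusted p, 14 were higher and 7 lower in Chelator at an adjusted p under 0.05, against 19.5% and 18.3% of all genes, and their median log2 fold change was 0.15, against 0.02. Nothing particular to these genes is read from this.

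The SLC40A1 gene (ENSG00000138449.11) lies at chr2:189560590-189583758. Its normalized counts were 4380, 3879 and 4441 in DMSO and 2837, 2999 and 2902 in Chelator. All 3 Chelator libraries lay below all DMSO libraries. The level fell by 0.54 on the log2 scale (SE 0.084, 95% interval -0.70 to -0.37, DESeq2 adjusted p = 1.40e-09), and the fitted level fell by 31.2%. SLC40A1 was among the genes that the study examined as known to respond to low iron, so its direction here is not independent evidence. The size of the fall was not compared with that in the study, and SLC40A1 was not among the 639 genes called lower here. In these bulk samples, fewer cells that express a gene and less RNA per cell cannot be told apart.

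SLC40A1 transcripts of 2 kinds were distinguished. SLC40A1-201 (ENST00000261024.7), of 3330 bases, starts at position 189580786, codes for the whole protein and carries the stem-loop in its 5′ UTR of 326 bases. SLC40A1-203, SLC40A1-204, SLC40A1-205 and SLC40A1-206 start further upstream, at positions 189583758, 189582022, 189583402 and 189582031, and do not hold the stem-loop. They are annotated fragments of 209 to 824 bases. A ferroportin mRNA that starts upstream and lacks the element is known from the intestine and from erythroid precursors. SLC40A1-202 and SLC40A1-207 hold the sequence but have no annotated coding region.

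SLC40A1-201 had 15.6, 17.6 and 16.1 TPM in DMSO and 12.9, 12.7 and 12.9 TPM in Chelator, a change of -22.0% in its mean TPM. The 4 transcripts with the upstream start together had 20.5, 19.2 and 19.4 TPM in DMSO and 10.8, 14.6 and 12.5 TPM in Chelator, a change of -35.9% in their mean TPM. Neither kind overlapped between the groups in TPM. No test was made of these sums. The share of SLC40A1-201 in the gene's TPM was 42.2% ± 1.68 in DMSO and 46.8% ± 3.11 in Chelator (SD, n = 3), and the groups overlapped. Most of the upstream TPM came from SLC40A1-206, of 592 bases, whose share was 32.8% ± 0.339 in DMSO and 30.9% ± 2.52 in Chelator. SLC40A1-204 held 10.9% ± 1.51 in DMSO and 7.64% ± 0.753 in Chelator, on 13.6 to 22.0 estimated counts per library, and its shares did not overlap between the groups. SLC40A1-203 held 6.83% ± 1.73 and 7.24% ± 1.61, and SLC40A1-202 held 5.50% ± 2.33 and 5.63% ± 0.417.

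The shares looked different when counts were used, because a short transcript collects few reads per molecule. SLC40A1-201 took 85.4% ± 0.788 of the gene's counts in DMSO and 85.1% ± 1.84 in Chelator. The upstream transcripts took 11.8% ± 1.22 and 12.0% ± 2.20. edgeR's transcript usage test over the 6 transcripts with enough counts gave an adjusted Simes p of 1.00 for the gene. By counts, SLC40A1-204 held 0.483% ± 0.103 in DMSO and 0.512% ± 0.0967 in Chelator, so its lower share was seen in TPM only. The test uses counts, and this transcript did not pass it (adjusted p = 1.00). A shift between transcripts with and without the stem-loop was not detectable at this depth. The TPM of transcripts under 600 bases also depends on the fragment length, in which the groups differed.

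**Figure D2:**
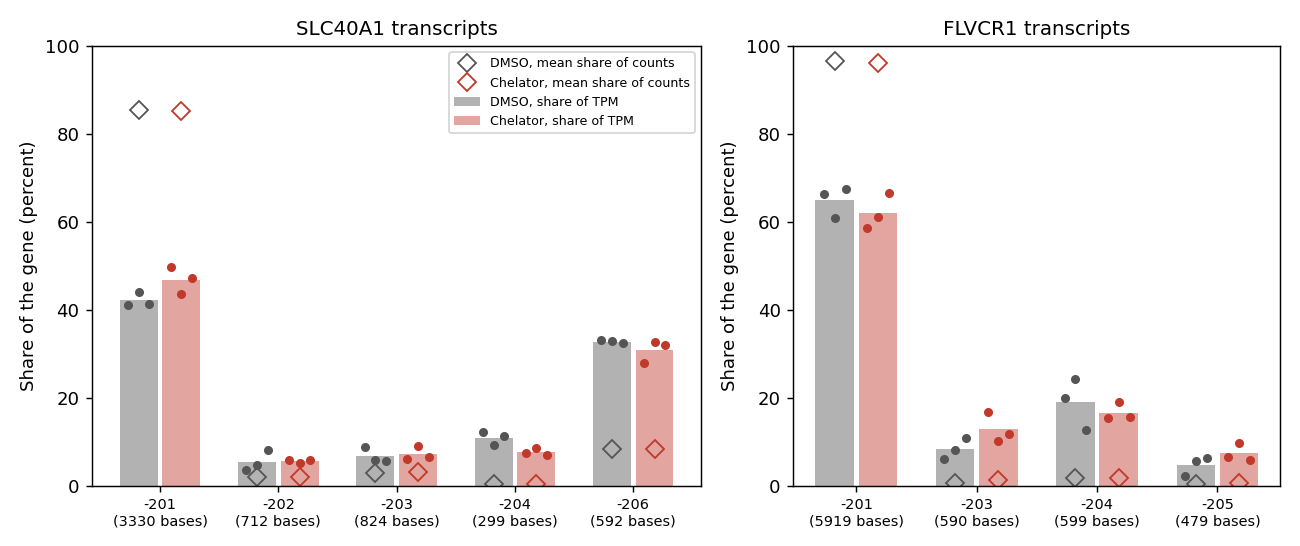
Share of the gene's TPM in percent (bars, group means; points, libraries) for the transcripts of SLC40A1 on the left and FLVCR1 on the right with a mean share of at least 5% in either group. Open diamonds give the mean share of the gene's estimated counts, which is 85.4% and 85.1% for SLC40A1-201 and 96.7% and 96.2% for FLVCR1-201 in DMSO and Chelator.

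The heme carriers moved in different directions. SLC48A1 (ENSG00000211584.14, chr12:47753916-47782751), also called HRG1, moves heme out of the lysosome into the cytosol. Its normalized counts were 4719, 4434 and 4698 in DMSO and 3143, 2949 and 3031 in Chelator. The groups were far apart compared with the spread within each, and the level fell by 0.60 on the log2 scale (SE 0.075, 95% interval -0.75 to -0.46, DESeq2 adjusted p = 1.56e-14), and so fell by 34.1%. The SLC48A1 locus overlaps HDAC7 on the opposite strand, and whether the counting used strand is not given in the sources used here. HDAC7 itself fell by 0.47 (SE 0.065, DESeq2 adjusted p = 7.92e-12) on the log2 scale.

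FLVCR1 (ENSG00000162769.13, chr1:212858275-212899363) was described as a heme exporter of erythroid precursors and has since been shown to carry choline. Its normalized counts were 3175, 3484 and 3322 in DMSO and 4494, 3948 and 3746 in Chelator. The Chelator libraries lay above the DMSO libraries, and the level rose by 0.29 on the log2 scale (SE 0.092, 95% interval 0.11 to 0.47, DESeq2 adjusted p = 0.0058), or by 22.1%. On the TPM scale the groups overlapped, with 11.5, 15.0 and 12.3 TPM in DMSO and 17.2, 16.04 and 14.8 TPM in Chelator. The log2 fold change was 0.12 (DESeq2 adjusted p = 0.33) when libraries were centred on the mean, which lowers the median of all genes from 0.02 to -0.15, and 0.29 (adjusted p = 0.056) by limma on log2(TPM + 1).

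Within each library, the TPM ratio of FLVCR1 to SLC48A1 was 0.453, 0.529 and 0.476 in DMSO and 0.963, 0.902 and 0.833 in Chelator. The ratio does not depend on the scaling of a library. The ratio of SLC40A1 to SLC48A1, both of which fell, was 1.48 ± 0.0592 in DMSO and 1.54 ± 0.0922 in Chelator (SD, n = 3) and overlapped between the groups.

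FLVCR1 was carried by FLVCR1-201 (ENST00000366971.9), of 5919 bases, the only transcript of the gene annotated with a complete coding start. It took 3160, 3159 and 2919 estimated counts in DMSO and 4298, 4313 and 3631 in Chelator. Its share of the gene's TPM was 64.9% ± 3.53 in DMSO and 62.1% ± 4.06 in Chelator. FLVCR1-203, FLVCR1-204 and FLVCR1-205 have no annotated coding region and at most 92.0 estimated counts each in any library. FLVCR1-204 held 19.0% ± 5.92 of the TPM in DMSO and 16.7% ± 2.04 in Chelator. FLVCR1-203 held 8.31% ± 2.36 and 12.9% ± 3.51, and FLVCR1-205 held 4.71% ± 2.18 and 7.37% ± 2.04. All 3 overlapped between the groups, and edgeR's usage test gave an adjusted Simes p of 1.00 for the gene.

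FLVCR2 (ENSG00000119686.10, chr14:75578620-75663214), a relative of FLVCR1 that carries choline across the blood-brain barrier and was earlier reported to take up heme, was nearly silent. It had 0, 0 and 2 counts in DMSO and 8, 10 and 16 counts in Chelator. Per sequenced count, Chelator held 15.2 times the DMSO level, with a 95% interval of 3.90 to 131 (exact binomial, counting error only). It passed the filter on low counts only through the Chelator libraries, so this ratio and the fitted log2 fold change of 4.76 (SE 1.52) are given as a description. Chelator replicate 3 had a normalized count of 41.8 against 5.49 and 6.05 in the other 2 Chelator libraries, because 5 of its counts fell on FLVCR2-212, a transcript of 575 bases that shortened the average length used for scaling. Without that library DESeq2 gave no adjusted p, and scaling without transcript lengths gave a log2 fold change of 3.84. FLVCR2 also overlaps TTLL5 on the same strand, and 31.5% of the 31-base sequences of FLVCR2-201 occur in TTLL5 or in the antisense gene FLVCR2-AS1. TTLL5 had 2000 ± 203 normalized counts in DMSO and 1749 ± 155 in Chelator (SD, n = 3). ERG28, which overlaps FLVCR2 on the opposite strand, rose from 1578 ± 60.3 to 3259 ± 70.1 normalized counts, by 1.05 on the log2 scale (SE 0.081, DESeq2 adjusted p = 3.55e-36). The reads of FLVCR2 are therefore uncertain in origin.

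ABCG2 (ENSG00000118777.12, chr4:88090150-88231628), a pump that exports porphyrins and many drugs, had 24, 24 and 29 counts in DMSO and 30, 24 and 29 in Chelator. The groups overlapped, and the log2 fold change was -0.37 with a 95% interval of -1.39 to 0.65 (DESeq2 adjusted p = 0.64). This depth leaves changes of that width undetermined.

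**Figure D3:**
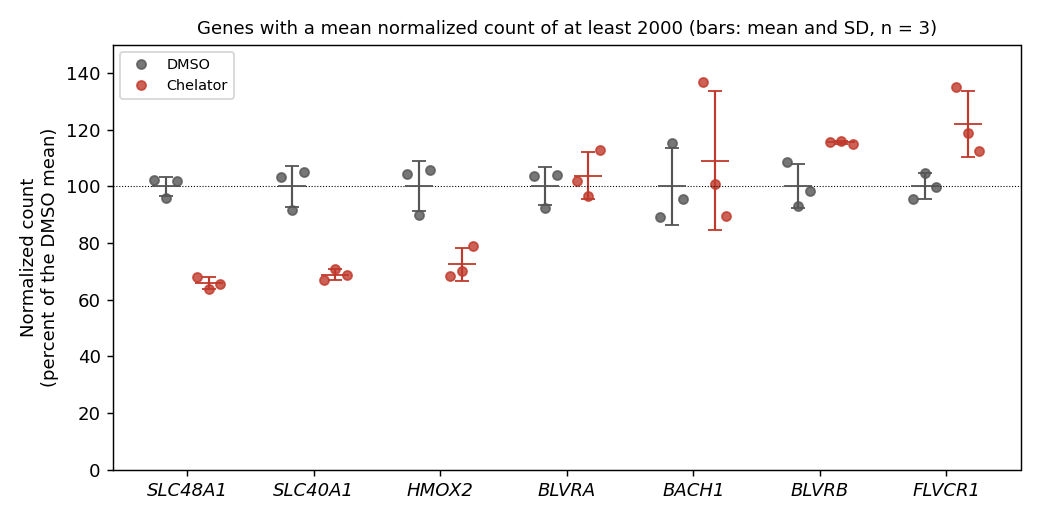
Normalized counts of the 7 genes that average 2000 or more, as percent of each gene's DMSO mean, with 1 point per library and bars for mean and SD (n = 3). SLC48A1, SLC40A1 and HMOX2 are lower and BLVRB and FLVCR1 higher in all 3 Chelator libraries than in any DMSO library, and BLVRA and BACH1 overlap.

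Of the heme oxygenase genes, HMOX2 was expressed and HMOX1 was at or near 0. HMOX1 (ENSG00000100292.18, chr22:35380361-35394214), the heme oxygenase that heme and oxidative stress induce, had 1, 0 and 1 counts in DMSO and 0 in every Chelator library. A count of 0 allows up to 3 counts, which is 0.0106 CPM (counts per M counts) over the 282.5 M counts of the Chelator libraries together (counting error only). With 2 counts in all, HMOX1 was below the minimum for the test.

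HMOX2 (ENSG00000103415.12, chr16:4474690-4510347), the heme oxygenase that most cells express without induction, had 4330, 3730 and 4390 normalized counts in DMSO and 2834, 2907 and 3277 in Chelator. All Chelator libraries lay below all DMSO libraries, and the level fell by 0.47 on the log2 scale (SE 0.096, 95% interval -0.65 to -0.28, DESeq2 adjusted p = 7.97e-06), and so fell by 27.6%. NMRAL1 overlaps HMOX2 on the opposite strand and fell by 0.37 (SE 0.082, DESeq2 adjusted p = 3.08e-05) on the log2 scale. HMOX2-208, of 1673 bases, held 67.5% ± 2.95 of the TPM of the gene in DMSO and 65.9% ± 2.07 in Chelator and shares no 31-base sequence with another gene. Among the minor transcripts, named after their values were seen, HMOX2-213 held 7.33% ± 1.47 and 2.09% ± 1.46 without overlap, and HMOX2-212 held 6.70% ± 1.17 and 12.3% ± 4.24, also without overlap (SD, n = 3). HMOX2-212 shares 8.82% of its 31-base sequences with the antisense strand of NMRAL1. The usage test of edgeR gave the gene an adjusted Simes p of 0.84, and limma's diffSplice gave 0.012.

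BLVRA (ENSG00000106605.11, chr7:43758680-43807342), which makes bilirubin from the main form of biliverdin, had 3052, 2713 and 3056 normalized counts in DMSO and 2999, 2837 and 3320 in Chelator. The groups overlapped, with a log2 fold change of 0.05 and a 95% interval of -0.13 to 0.24 (DESeq2 adjusted p = 0.72).

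BLVRB (ENSG00000090013.11, chr19:40447765-40465764), which reduces flavins and the beta form of biliverdin and is abundant in red cells, had 19637, 16861 and 17840 normalized counts in DMSO and 20930, 21034 and 20838 in Chelator. The Chelator libraries lay close together and above the DMSO libraries, and the level rose by 0.21 on the log2 scale (SE 0.074, 95% interval 0.06 to 0.35, DESeq2 adjusted p = 0.015). The direction turned when the dependence of each library on GC content and length was taken out, which gave -0.15 (adjusted p = 0.022), and with libraries centred on the mean the value was 0.04 (adjusted p = 0.75). BLVRB transcripts average 807 bases with a GC content of 61.2%. Of genes averaging 500 or more normalized counts, 600 to 1000 bases and a GC content of 58 to 65%, 169 genes had a median log2 fold change of 0.11, and 1538 genes longer than 3000 bases with a GC content under 45% had a median of -0.24. The adjusted p was 0.053 without Chelator replicate 2, 0.052 without DMSO replicate 2 and 0.081 without DMSO replicate 3.

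Within each library, BLVRB was 9.11, 9.08 and 8.16 times as abundant as HMOX2 in DMSO and 14.8, 14.5 and 12.8 times as abundant in Chelator, in TPM. BLVRA was 1.12, 1.15 and 1.105 times as abundant as HMOX2 in DMSO and 1.68, 1.55 and 1.61 times in Chelator. In both ratios the groups did not overlap. These ratios restate the changes given above for the single genes, and they do not remove the dependence on GC content and length given for BLVRB. The ratio of BLVRB to BLVRA overlapped between the groups, at 7.39 to 8.14 in DMSO and 7.94 to 9.38 in Chelator.

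BACH1 (ENSG00000156273.16, chr21:29194071-29630751) had 6656, 8617 and 7145 normalized counts in DMSO and 10218, 7540 and 6696 in Chelator. The highest Chelator library was above every DMSO library and the lowest was below 2 of the 3, and the log2 fold change was 0.13 with a 95% interval of -0.15 to 0.40 (DESeq2 adjusted p = 0.53). Without Chelator replicate 1 it was -0.07. BACH1-201, of 5618 bases, took 60.2% ± 3.67 of the TPM of BACH1 in DMSO and 61.8% ± 4.06 in Chelator, and BACH1-202 took 12.9% ± 3.11 and 13.5% ± 4.17.

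BACH1 and its competitor NRF2 bind the antioxidant response element together with small MAF proteins. The core of this element, TGACNNNGC, was looked for on both strands in windows of 300 bases around annotated gene starts (RefSeq, GRCh38.p14). It was found in 1 of 17 windows of the 9 genes other than HMOX1, that of an ABCG2 start, and in 13.3% of all 35116 windows. In SLC40A1, HMOX2, BLVRA, BLVRB, FLVCR1, FLVCR2, SLC48A1 and BACH1 itself these letters were not in the windows searched.

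**Figure D4:**
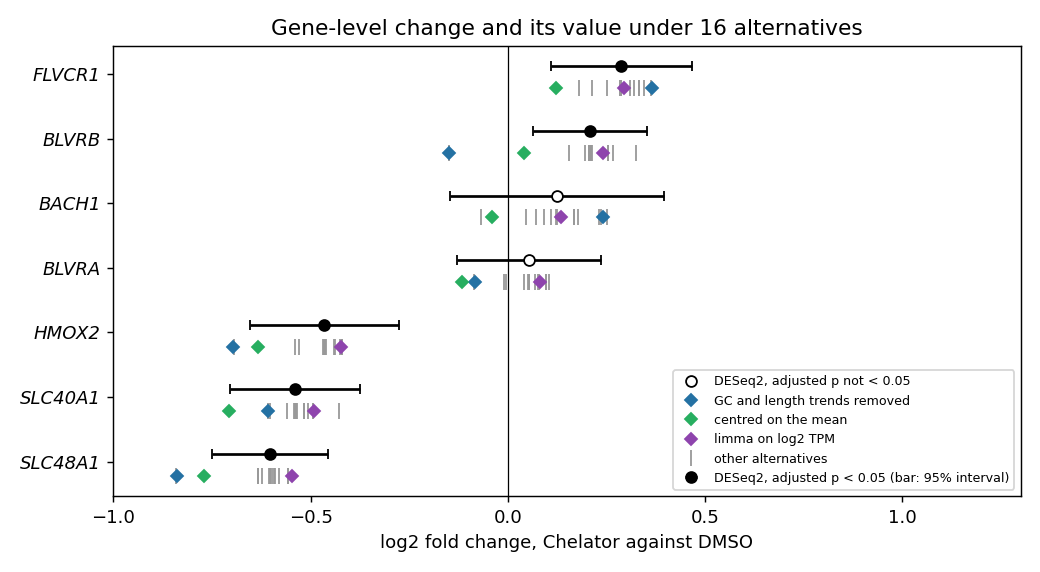
Log2 fold change of Chelator against DMSO for the 7 genes that average 2000 or more normalized counts. Circles are DESeq2 values with 95% intervals, filled where the adjusted p is under 0.05, and marks below each circle are 16 other ways of processing, under which SLC48A1, SLC40A1 and HMOX2 stay below 0, FLVCR1 stays above 0, and BLVRB, BACH1 and BLVRA cross it.

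Across these 16 other ways of processing, the log2 fold change lay between -0.84 and -0.55 for SLC48A1, between -0.71 and -0.43 for SLC40A1 and between -0.70 and -0.42 for HMOX2, each with an adjusted p under 0.05 throughout. FLVCR1 lay between 0.12 and 0.37 and passed in 14 of the 16. None of the 7 genes tested for transcript usage by edgeR was called, against 9.22% of the 11938 genes tested. Their smallest adjusted Simes p was 0.84, for HMOX2, and by limma's diffSplice the adjusted Simes p was 0.012 for HMOX2, 0.015 for BLVRA and 0.044 for BLVRB. By diffSplice 3184 of the 11938 genes were called, and 2 of the 7. Nothing particular to the 7 is read from this.

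Other genes of the same pathways were grouped in 5 lists. Their counts stand against 18.3% lower and 19.5% higher over all genes, of which 63.6% passed in either direction between 2000 and 20000 normalized counts, and the median of all genes was 0.02. Nothing particular to a list is read from its counts. Among 14 further heme carriers, scavengers and binders, 13 had an adjusted p, of which 6 were lower, 3 higher and 4 not past the test, with a median log2 fold change of -0.24. SLC46A1, a folate carrier that was earlier reported to take up heme in the gut, averaged 1781 ± 270 normalized counts in DMSO and 897 ± 193 in Chelator (SD, n = 3) and fell by 0.99 on the log2 scale (SE 0.16, DESeq2 adjusted p = 3.30e-09). PGRMC2, which chaperones heme to the nucleus, fell by 0.53 (SE 0.081, DESeq2 adjusted p = 7.56e-10) on the log2 scale. LRP1, the endocytic receptor for heme bound to hemopexin, rose by 2.36 on the log2 scale, with 60.7 ± 13.9 normalized counts in DMSO and 314 ± 106 in Chelator (SE 0.29, DESeq2 adjusted p = 9.64e-15). Hemopexin itself, HPX, was the other called gene of this list and is named because it was called, at 12.3 ± 1.21 and 57.0 ± 5.14 normalized counts.

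Of 6 partners and regulators of iron export, 5 had an adjusted p, with 1 higher and 1 lower. HEPH, a ferroxidase that works beside ferroportin, rose by 0.54 on the log2 scale, with 9457 ± 439 normalized counts in DMSO and 13761 ± 718 in Chelator (SE 0.074, DESeq2 adjusted p = 2.53e-12). MON1A, which takes part in bringing ferroportin to the cell surface, fell by 0.54 (SE 0.085, DESeq2 adjusted p = 2.42e-09) on the log2 scale. None of the 4 genes with an adjusted p in the list of electron supply to heme oxygenase and bilirubin disposal passed, though 1 was lower with GC content and length trends removed, and SLCO1B3 was at 0 in every library.

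Of 11 partners, relatives and regulators of BACH1, 3 were higher, 4 lower and 4 did not pass, with a median log2 fold change of 0.08. BACH2, the closest relative of BACH1, rose from 379 ± 49.0 to 2091 ± 334 normalized counts (log2 fold change 2.47, SE 0.14, DESeq2 adjusted p = 1.18e-63). MAFF, a small MAF partner, rose from 618 ± 31.2 to 2028 ± 45.6 (log2 fold change 1.71, SE 0.098, DESeq2 adjusted p = 2.19e-66). NFE2L2, which encodes NRF2, rose by 0.45 (SE 0.079, DESeq2 adjusted p = 9.68e-08) on the log2 scale.

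Of 24 genes listed as targets of NRF2 and BACH1 outside heme breakdown, 23 had an adjusted p, with 12 higher, 3 lower and 8 not past the test and a median log2 fold change of 0.22. With libraries centred on the mean, 8 were higher and 5 lower. OSGIN1, a stress-induced growth inhibitor, rose by 1.43 (SE 0.12, DESeq2 adjusted p = 5.57e-29), and SQSTM1, the autophagy receptor p62, by 1.36 (SE 0.097, DESeq2 adjusted p = 8.05e-43), both on the log2 scale. SLC7A11, the cystine importer, rose by 0.62 (SE 0.097, DESeq2 adjusted p = 1.74e-09). HMOX1, also a target of both factors, had 0 counts in the same Chelator libraries.

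**Figure D5:**
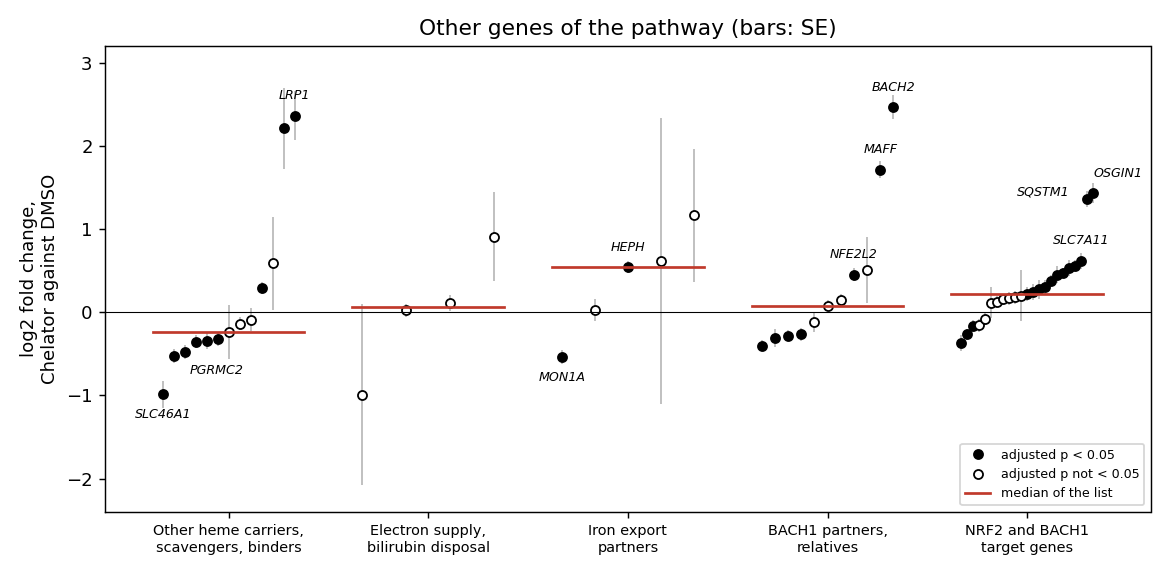
Log2 fold change of Chelator against DMSO (bars, SE) for the genes of 5 lists with an adjusted p, filled where it is under 0.05, with the list median in red. The medians lie at -0.24, 0.06, 0.54, 0.08 and 0.22 from left to right, and BACH2 and LRP1 lie furthest from 0 of the genes labelled.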

How the data were processed

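Polyadenylated RNA was sequenced as paired-end reads, and per the labels the notes of the submitters name Salmon 1.10.2, DESeq2 3.19, STAR 2.7.11b and hg38. The deposited files give the authors' estimated counts, which need not be whole, and the authors' TPM for 252045 transcripts. The transcript annotation is not given in the sources used here. Transcripts were matched to GENCODE release v44; 433 had no match, with 0.139% to 0.150% of the counts.

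Estimated counts were summed per gene, rounded, kept at a total above 10 and compared by the Wald test of DESeq2 1.42.0 (R 4.3.3) with Benjamini-Hochberg adjustment. The test and its thresholds follow the methods of the study. Applying the count threshold to the total of 6 libraries, and average transcript length as an offset, were choices made here. A gene passed at an adjusted p under 0.05 and was called with a log2 fold change above 1 besides. Transcript usage was tested with edgeR 4.0.16 diffSpliceDGE (at least 10 counts in at least 3 libraries; called with a share change above 5 points). Alternatives used limma 3.58.1, edgeR, other filters, scalings and left-out libraries. On simulated data, DESeq2, edgeR and the transcript usage test each made more false calls than the adjusted p threshold allows.

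The members and lists were chosen with earlier results of these data known. Named genes were all 10 members and, per list, up to 3 passing genes with the largest change at a mean count of at least 50, and genes at 0. Depth limits precision; intervals and floors cover counting error only.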

Additional observations from a re-analysis of the deposited data

How the results depend on the processing

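SLC48A1, SLC40A1 and HMOX2 were lower in Chelator with an adjusted p under 0.05 under all 16 alternatives. BLVRB turned to -0.15 with GC content and length trends removed, and to -0.15 with the replicate block as well. BLVRA, which passed under none, was -0.084 and -0.086 under the same settings and -0.115 with libraries centred on the mean, and BACH1 was -0.039 with that centring. The causes were not tested. Leaving out 1 library at a time gave -0.009 to 0.104 for BLVRA, -0.067 to 0.251 for BACH1, 2 to 3 members higher and 0 to 1 called, the 0 without Chelator replicate 3. Among the lists, the targets of NRF2 and BACH1 had 5 genes lower, in place of 3, with GC content and length trends removed and with centring on the mean. The heme carriers had 1 higher, in place of 3, by limma, where LRP1 and HPX were not tested because of their low TPM. The electron supply list had 1 lower, in place of 0, with GC content and length trends removed, with the replicate block or without it. The iron export partners had 2 lower, in place of 1, without the length offset. Of the members, 1 was higher with centring on the mean and 1 by limma on log2 TPM, where FLVCR2 was not tested. None was called by limma or with at least 10 counts in 3 libraries, where FLVCR2 was not tested either.

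Over all genes, limma called 789 (604 higher and 185 lower) against 2646 (2007 higher and 639 lower) by DESeq2. These counts come from unlike sets, since limma tested 13834 genes with a mean of at least 1 TPM and DESeq2 gave 24542 an adjusted p. The log2(TPM + 1) scale of limma also lowers the fold changes of genes with few TPM. The genes called lower numbered 962 with GC content and length trends removed and 1075 with centring on the mean. For transcript usage, limma's diffSplice called 3184 of the 11938 genes tested and 2 of the 7 members tested (HMOX2 and BLVRA). By edgeR 1101 genes and 0 members were called. With at least 1 count in 3 libraries 1090 genes were called, 1 of them a member, BLVRA. Its transcript BLVRA-203 had 0, 61.0 and 199 counts in the Chelator libraries. Leaving out 1 library gave 539 to 1063 genes, with 592 without Chelator replicate 2 and 539 without Chelator replicate 3.

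The share of SLC40A1-201 in DMSO and Chelator was 85.4% and 85.1% by counts, 47.3% and 50.7% over transcripts of at least 500 bases, and 49.5% and 54.3% for the stem-loop anywhere in a transcript, a setting chosen after seeing the data. The share of FLVCR1-201 was 96.7% and 96.2% by counts and 67.0% in Chelator over transcripts of at least 500 bases. These settings change what is counted.

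Samples with the same replicate number deviated together with correlations of -0.004, 0.124 and 0.092, and samples with different numbers with -0.123 to 0.047. These values do not settle whether the numbers mark pairs, and they were not taken as pairs in the main test. With the replicate block 2345 genes were called, 3 members were higher and 3 lower, 1 was called, and 923 genes were called for usage. The block changed no member's call.

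The 3 members with fewest reads limit the comparison, since ABCG2 held 160 counts, FLVCR2 36 and HMOX1 2 over 6 libraries.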
